A study of Mus musculus with 6 samples.

Results

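Serum response factor (SRF) and 9 genes of the actin cytoskeleton were followed in mouse squamous cell carcinoma (SCC) cells with and without focal adhesion kinase (FAK). The genes were taken by their Ensembl identifiers, and all 10 were among the 17204 genes measured. They are Srf itself (ENSMUSG00000015605), the actin isoform Acta2 (ENSMUSG00000035783) and the myosin light chain Myl9 (ENSMUSG00000067818), the tropomyosins Tpm1 (ENSMUSG00000032366) and Tpm2 (ENSMUSG00000028464), the calponin family members Cnn1 (ENSMUSG00000001349), Cnn2 (ENSMUSG00000004665) and Tagln (ENSMUSG00000032085), and the crosslinkers Actn1 (ENSMUSG00000015143) and Flna (ENSMUSG00000031328). The tumors were induced by DMBA/TPA chemical carcinogenesis of the skin in K14CreER FAKflox/flox mice of the FVB strain. Cre is driven in these mice by the keratin 14 promoter of basal keratinocytes. The SCC FAK-/- cells are 1 clone, isolated after 4-hydroxytamoxifen treatment of the tumor cells. The SCC FAK-wt cells are derived from that clone by transduction with a retrovirus carrying wild-type FAK and were kept under hygromycin. Both lines therefore carry the deleted fak alleles, and re-expression of FAK cannot be told apart from the vector and its selection. RNA from 3 biological replicates of each line was measured on 6 Affymetrix mouse genome arrays, and the age of the mice is not given in the sources used here.

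SRF is a transcription factor that binds a short DNA element, the CArG box. Its partners of the myocardin-related family are held in the cytoplasm by monomeric actin and enter the nucleus when actin is assembled into filaments, so that transcription of actin cytoskeleton genes follows the state of the cytoskeleton. FAK is a kinase of the focal adhesions, where integrins are connected to the ends of actin stress fibers, and most of these genes encode parts of such fibers. Acta2, Tagln and Cnn1 are best known as genes of smooth muscle and myofibroblasts.

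In these cells, re-expression of FAK went with a lower level of 1 of the 10 genes and a higher level of 0, counted at limma's two-sided unadjusted p under 0.01. That gene was Myl9, which encodes the regulatory light chain of the myosin of stress fibers and smooth muscle, and its level in SCC FAK-wt cells was 0.50 times that in SCC FAK-/- cells. Of all genes, 3.66% were lower and 3.19% higher at this level. After Benjamini-Hochberg adjustment over all genes, 0 of the 10 genes had an adjusted p under 0.05, where 1.92% of all genes did (1.10% in the lower direction). With the looser threshold of an unadjusted p under 0.05, 3 genes were lower, Myl9, Acta2 and Actn1, beside 7.74% of all genes lower at that level. This count changed when some arrays were left out. It was 1 without SCC FAK-wt replicate 1, SCC FAK-wt replicate 3 or SCC FAK-/- replicate 3, and 2 without SCC FAK-/- replicate 2. It stayed at 3 without SCC FAK-wt replicate 2 or SCC FAK-/- replicate 1. A fit with 1 array fewer is also less precise. Without SCC FAK-/- replicate 3, Actn1 was no longer counted, though its log2 fold change was -0.30 against -0.29 with all arrays. The log2 fold change was below 0 in 9 of the 10 genes, as in 46.7% of all genes, with a median of -0.16 against 0.016 over all genes.

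The CArG boxes near these genes are shown because SRF binds such elements. RefSeq promoter windows (GRCm38.p6) were matched by symbol for 9 of the 10 genes, all but Tagln. The 250 bases before each start were searched for a CArG box, taken as 2 C, 6 bases that are each A or T, and 2 G, a pattern that reads alike on both strands. It was found in 3 of the 9 genes, Srf, Myl9 and Cnn2, and in 1.47% of all 32851 windows. These windows were not limited to the genes measured on the arrays. The 10 genes were listed as actin cytoskeleton genes and SRF targets, so a higher share among them is not a finding of these data. Srf held 2 boxes, beginning 82 and 62 bases before the start, on the minus strand within chr17:46556195-46556264. Myl9 held 1, beginning 161 bases before the start, on the plus strand within chr2:156775283-156775332. Cnn2 held 1, beginning 56 bases before the start, on the plus strand within chr10:79988524-79988573. The coordinates are those of the printed stretches, in which the boxes are in capitals with 20 bases on either side.
Srf: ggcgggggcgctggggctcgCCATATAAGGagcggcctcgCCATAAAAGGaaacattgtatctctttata
Myl9: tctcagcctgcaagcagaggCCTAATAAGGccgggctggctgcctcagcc
Cnn2: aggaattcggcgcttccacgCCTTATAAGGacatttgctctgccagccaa
A stretch that missed the pattern by 1 letter was present at Acta2 and Tpm1 (2 each) and at Srf, Myl9 and Flna (1 each), against 17.5% of all windows with at least 1. The Acta2 promoter carries CCCTATATGG and CCTTGTTTGG, beginning 84 and 34 bases before the start. Each has 1 C or G among the 6 middle bases, which the pattern searched does not allow. Whether SRF binds at such stretches was not tested. Actn1, Cnn1 and Tpm2 had neither in these bases, which says nothing of sites farther away.

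**Figure D1:**
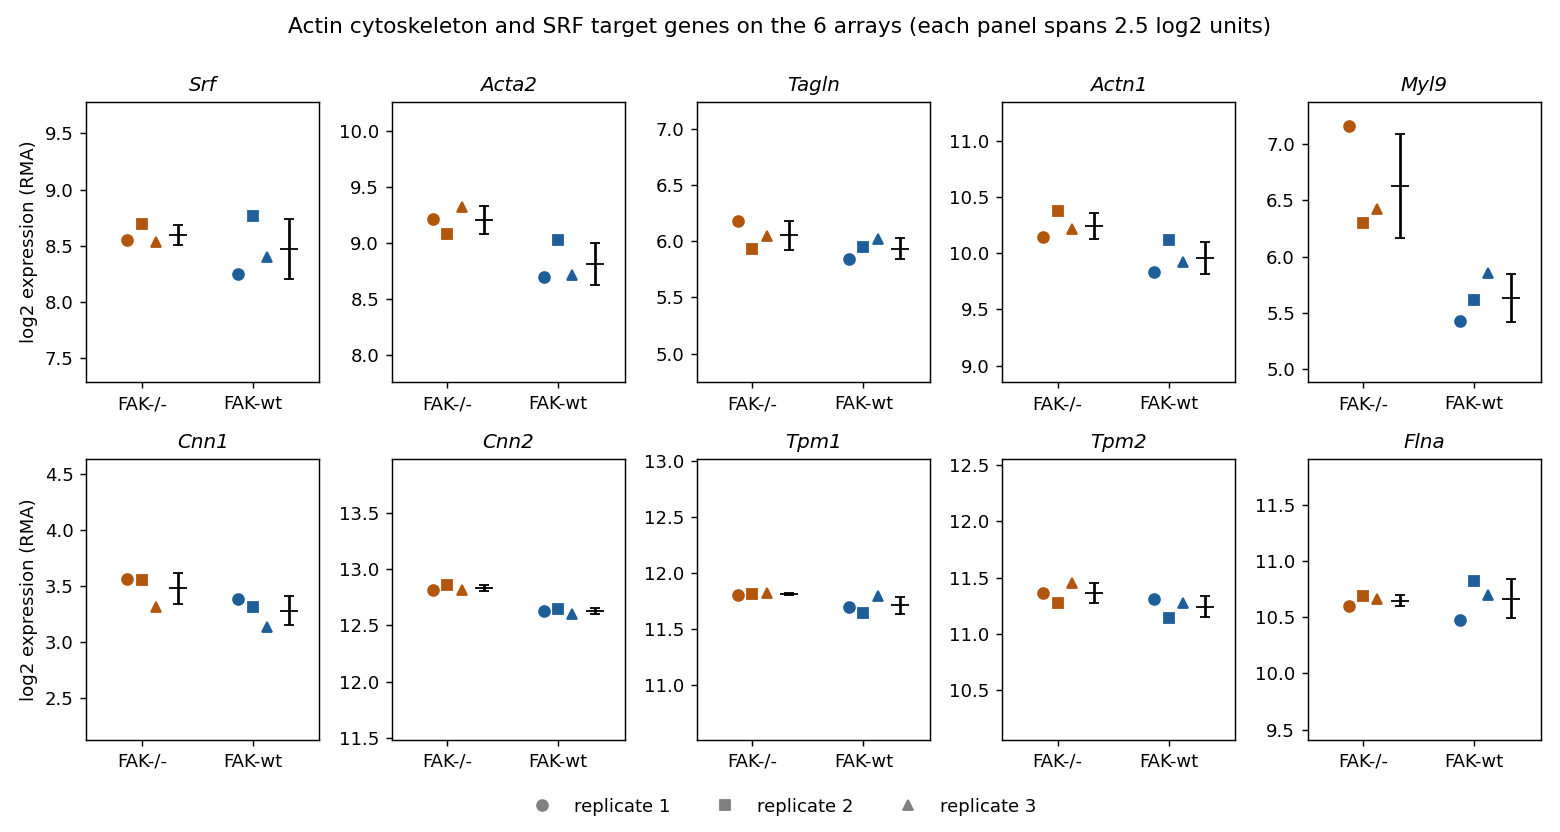
Log2 expression of the 10 genes on each array, SCC FAK-/- in brown and SCC FAK-wt in blue, with the mean and SD of each line beside the points and the same height of axis in every panel. The Myl9 points of the lines are the farthest apart, 5.42 to 5.85 against 6.30 to 7.16, while the lines overlap in Srf, Tagln, Cnn1, Tpm2 and Flna.

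Srf, the transcription factor, had log2 values of 8.25, 8.77 and 8.40 in SCC FAK-wt cells (replicates 1 to 3, as for every gene here) and 8.55, 8.70 and 8.54 in SCC FAK-/- cells. The SCC FAK-wt values reached from below to above all of the others, so the lines overlapped completely. The means were 8.47 ± 0.27 (SD, n = 3) and 8.60 ± 0.089 (SD, n = 3), and the log2 fold change was -0.13 (95% interval -0.48 to 0.22, limma adjusted p = 0.774). A difference between 0.72-fold and 1.17-fold is left within that interval. The widest spread came from SCC FAK-wt replicate 2, and without it the log2 fold change was -0.27 (limma adjusted p = 0.365).

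Myl9 had log2 values of 5.42, 5.61 and 5.85 in SCC FAK-wt cells and 7.16, 6.30 and 6.43 in SCC FAK-/- cells. Every SCC FAK-wt value was below every SCC FAK-/- value, with 0.45 log2 units between the nearest arrays of the lines. The means were 5.63 ± 0.21 (SD, n = 3) and 6.63 ± 0.46 (SD, n = 3). Thus the log2 fold change was -1.002 with a 95% interval of -1.56 to -0.45 and an unadjusted p of 0.00352, which became 0.0910 after adjustment (limma). Only 146 of the 17204 genes had a lower log2 fold change. SCC FAK-/- replicate 1 stood 0.53 above the mean of its line, and the spread of Myl9 in SCC FAK-/- cells exceeded that of 96.1% of all genes. Without that array the log2 fold change was -0.74, at an unadjusted p of 0.00325. The call at 0.01 was lost without SCC FAK-wt replicate 1, where the log2 fold change was -0.90 at an unadjusted p of 0.0150. It was lost without SCC FAK-wt replicate 2 as well, at -0.99 and an unadjusted p of 0.0116. An ordinary linear model for each gene, in place of limma's moderated variances, gave an unadjusted p of 0.0275.

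Acta2 encodes smooth muscle alpha-actin, the actin isoform of contractile cells. Its log2 values were 8.69, 9.03 and 8.72 in SCC FAK-wt cells and 9.21, 9.08 and 9.32 in SCC FAK-/- cells, so that the lines did not overlap but came within 0.053 of each other. The means were 8.81 ± 0.19 (SD, n = 3) and 9.21 ± 0.12 (SD, n = 3), and the log2 fold change of -0.39 (95% interval -0.70 to -0.087) had an unadjusted p of 0.0185 and an adjusted p of 0.203 (limma). SCC FAK-wt replicate 2 was the array nearest to the other line. Without it the log2 fold change was -0.50 and the gene passed at 0.01, with an unadjusted p of 0.00536 and an adjusted p of 0.136 (limma). The gene no longer passed at 0.05 without SCC FAK-wt replicate 1, SCC FAK-wt replicate 3 or SCC FAK-/- replicate 3, with an unadjusted p of 0.0628, 0.0584 and 0.0607. Actin isoforms share most of their coding sequence, and the mapping of the probes to genes is not given in the sources used here, so a share of signal from other actins cannot be told apart.

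Actn1, an alpha-actinin that crosslinks actin filaments in stress fibers and at adhesions, had log2 values of 9.83, 10.11 and 9.93 in SCC FAK-wt cells. In SCC FAK-/- cells the values were 10.14, 10.37 and 10.21, all above the other line, by 0.027 at the nearest pair. The log2 fold change was -0.29 (95% interval -0.56 to -0.0060) with an unadjusted p of 0.0464 and an adjusted p of 0.310 (limma). In 6 of 14 alternatives its unadjusted p was 0.05 or more, up to 0.147 without SCC FAK-/- replicate 2. Flna, the filamin that joins filaments into networks and ties them to integrins, differed least. Its SCC FAK-wt values of 10.48, 10.82 and 10.69 enclosed the SCC FAK-/- values of 10.60, 10.69 and 10.66. The log2 fold change was 0.017 (95% interval -0.26 to 0.29, adjusted p = 0.969, limma), and its sign changed with the scaling of the arrays.

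The calponin family members are actin-binding proteins, of which Cnn1 and Tagln mark smooth muscle and Cnn2 is found in many cell types. Cnn2 had log2 values of 12.63, 12.65 and 12.61 in SCC FAK-wt cells and 12.81, 12.86 and 12.82 in SCC FAK-/- cells. The lines were 0.16 apart, while the arrays of a line were within 0.045 and 0.052 of each other. Its log2 fold change was small, -0.20 (95% interval -0.41 to 0.0085), and its unadjusted p was 0.0577 (limma, adjusted p = 0.343). The SD was 0.023 in SCC FAK-wt and 0.029 in SCC FAK-/- cells, smaller than in all but 1.96% and 3.82% of genes, and limma draws such small variances toward the common one. With the gene's own variance alone, the unadjusted p was 0.000663 and the adjusted p 0.0817, and 2.46% of all genes were lower at 0.01. With limma's robust prior that follows the level of a gene, they were 0.000471 and 0.0262, and 3.97% of all genes were lower at 0.01.

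Tagln had log2 values of 5.84, 5.95 and 6.02 in SCC FAK-wt cells and 6.18, 5.93 and 6.04 in SCC FAK-/- cells, and the lines overlapped. The log2 fold change was -0.12 (95% interval -0.38 to 0.14, limma adjusted p = 0.706). Cnn1 had values of 3.39, 3.31 and 3.14 against 3.56, 3.55 and 3.32, which overlapped as well, and a log2 fold change of -0.20 (95% interval -0.48 to 0.083, limma adjusted p = 0.503). Only 16.1% of genes had a lower mean signal than Cnn1, and at such signals near the background differences can be understated.

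Tropomyosins lie along actin filaments and govern the access of myosin. Tpm1 had log2 values of 11.70, 11.65 and 11.79 in SCC FAK-wt cells and 11.80, 11.82 and 11.82 in SCC FAK-/- cells, separated by 0.0085 at the nearest pair. Its log2 fold change was -0.10 (95% interval -0.32 to 0.12, limma adjusted p = 0.695). Tpm2 had values of 11.31, 11.14 and 11.28 against 11.36, 11.28 and 11.45, and the lines overlapped by 1 array each. The log2 fold change of Tpm2 was -0.12 (95% interval -0.37 to 0.12, limma adjusted p = 0.661), close to that of Tpm1. Both genes give several transcripts by alternative promoters and splicing, and 1 value per gene does not separate them.

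**Figure D2:**
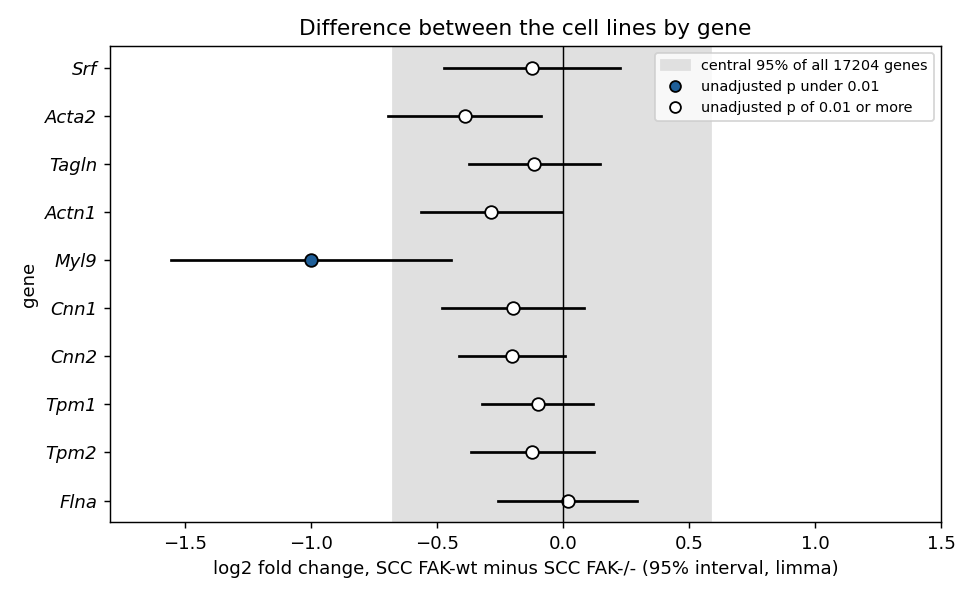
Log2 fold change of each gene (points) with its 95% interval from limma (lines), over the central 95% of the log2 fold changes of all 17204 genes (grey, -0.68 to 0.59). Myl9 is the 1 gene outside the grey range and the 1 filled point, at an unadjusted p under 0.01.

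The SCC FAK-wt arrays lay below the SCC FAK-/- arrays without overlap in 5 of the 10 genes, Myl9, Acta2, Actn1, Cnn2 and Tpm1, and above them in 0. Of all genes 10.0% were separated in the lower direction and 11.5% in the higher. The gaps differed in size, from 0.0085 in Tpm1 to 0.45 in Myl9. For 9 of the 10 genes the 95% interval excluded a change of 2-fold, and for 8 a change of 1.5-fold, the exceptions being Myl9 for the former and Myl9 and Acta2 for the latter. Cnn1 is counted in both, but its dim signal can understate a change, so its interval does not bound one. Cnn2, Tpm1 and Tpm2 are also counted in both, and their mean signals were higher than those of nearly all genes. Whether differences are understated at such bright signals was not tested, so their intervals bound the difference in signal only.

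The genes also varied within a line. In SCC FAK-wt cells Srf, Acta2, Actn1 and Flna had the same order of arrays, with replicate 1 lowest and replicate 2 highest, an order found in 14.4% of all genes. From replicate 1 to replicate 2 the difference was 0.52 for Srf, 0.33 for Acta2, 0.28 for Actn1 and 0.34 for Flna. For Srf and Flna this was larger than the difference between the means of the lines, and for Acta2 and Actn1 it was not. Myl9 and Tagln shared another order in each line. In SCC FAK-wt cells replicate 1 was lowest and replicate 3 highest, as in 12.9% of all genes. In SCC FAK-/- cells replicate 2 was lowest and replicate 1 highest, as in 13.7% of all genes. Replicate 1 was the lowest SCC FAK-wt array in 6 of the 10 genes, against 27.4% of all genes, and replicate 2 the highest in 5, against 30.6%. The median SD of the genes was 0.14 in SCC FAK-wt and 0.10 in SCC FAK-/- cells, beside 0.15 and 0.15 over all genes.

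**Figure D3:**
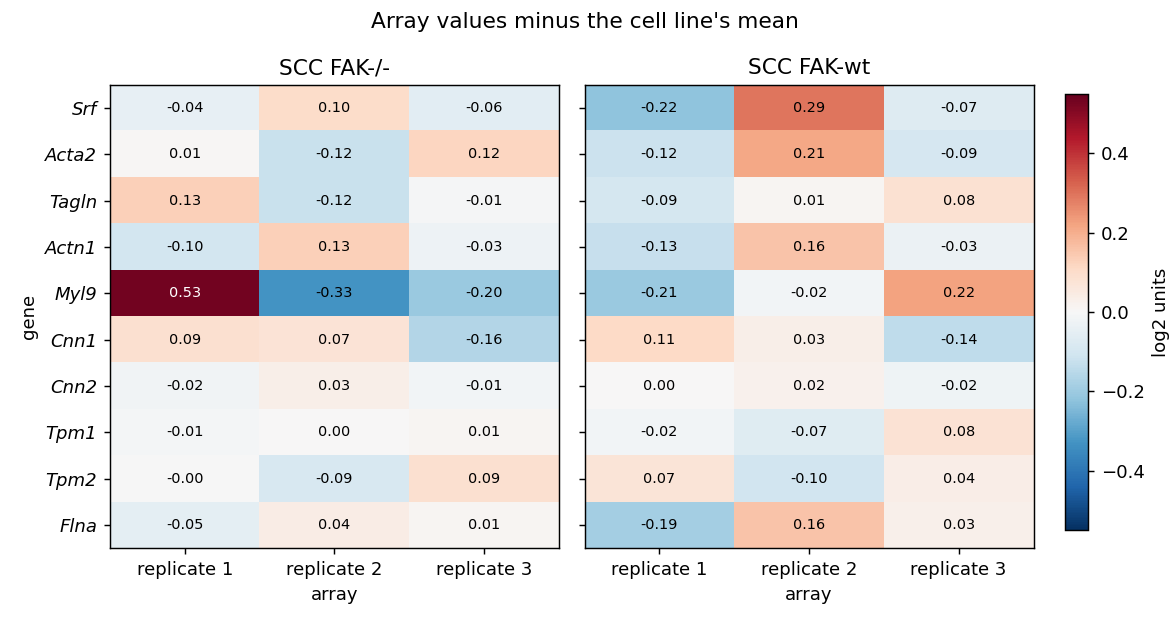
Value of each gene on each array minus the mean of its cell line, in log2 units (red above, blue below). SCC FAK-wt replicate 2 is above the line's mean in Srf, Acta2, Actn1 and Flna, by 0.29, 0.21, 0.16 and 0.16, and SCC FAK-/- replicate 1 is 0.53 above it in Myl9.

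**Figure D4:**
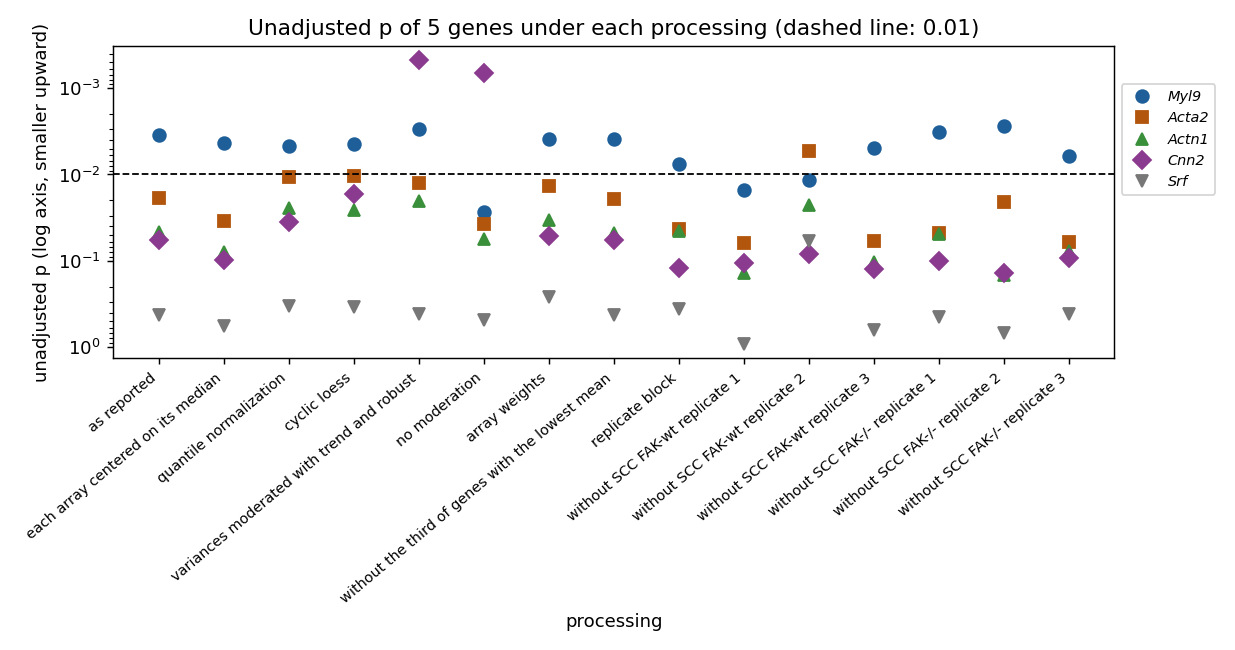
Unadjusted p (log axis, smaller values upward) of 5 genes under the processing reported here and 14 alternatives, with 0.01 as a dashed line. Myl9 passes under 11 of the 14, Cnn2 under 2, Acta2 under 1, and Actn1 and Srf under 0.

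Over the whole table the arrays were alike, with medians of 5.90 to 5.97 and interquartile ranges of 3.997 to 4.16 log2 units. The identifiers of the other genes were not paired with symbols here. The level of the fak gene, the keratinocyte, fibroblast, smooth muscle and leukocyte markers and the further genes of the SRF pathway were therefore not analysed here, and the labelled cell type and genotype were not checked against their markers. In RNA from whole cultures, fewer cells that express a gene and less RNA per cell cannot be told apart.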

How the data were processed

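RNA from 3 SCC FAK-wt and 3 SCC FAK-/- samples was measured on Affymetrix mouse genome arrays. The authors deposited log2 values, 1 per Ensembl identifier and array, made with Robust Multi-array Average (RMA), a background correction, normalization and summary of probes, in affy. The log2 scale was taken from their range, and the versions and probe mapping are not given in the sources used here. All 17204 genes were fitted by lmFit and eBayes (limma 3.58.1, R 4.3.3, two-sided) with cell line as the only term and adjusted by the Benjamini-Hochberg method. The study's methods give p under 0.01 and name no test in the text. Fold changes are SCC FAK-wt over SCC FAK-/-. The fit was tested on simulated data. With 3 arrays a line an exact permutation test cannot give p below 0.1.

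All 10 genes were to be named. Lists of SRF regulators, further targets, actin assembly genes and cell markers, and the genes most like Srf and Tagln, were planned by symbol and not analysed here, since 0 of the identifiers were in the symbol table used. The genes and lists were chosen with earlier results of these data known. The alternatives were 3 scalings, trended and robust moderation, no moderation, array weights, a filter on dim genes, the replicate number as a block and leaving out each of the 6 arrays.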

Additional observations from a re-analysis of the deposited data

How the results depend on the processing

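The number of the 10 genes that were lower with FAK at an unadjusted p under 0.01 (1) was 2 with variances moderated with trend and robust, where Cnn2 joined Myl9, and 0 to 1 with an array left out, being 0 without SCC FAK-wt replicate 1. Cnn2 also made the number lower at an adjusted p under 0.05 go from 0 to 1 with that moderation, in which trend and robust were changed together. The fold change of Cnn2 is the same in these fits, which differ in the variance they give it. No moderation left the number at an unadjusted p under 0.01 at 1, but with Cnn2 in place of Myl9. Leaving out SCC FAK-wt replicate 2 also left it at 1, but with Acta2 in place of Myl9. At an unadjusted p under 0.05 the number lower (3) was 2 with each array centered on its median and 4 with quantile normalization, cyclic loess or trended and robust moderation. In each of the 14 alternatives 0 of the 10 genes were higher at either threshold. Of 139 fold changes refitted for single genes, 5 reversed, all of Flna: -0.029 with quantile normalization, -0.026 with cyclic loess, -0.0058 with array weights, and with an array left out -0.062 to 0.11, below 0 without SCC FAK-wt replicate 2 or SCC FAK-/- replicate 1. Cnn1 was removed by the filter on dim genes. A replicate block kept Myl9 as the 1 gene called, at an unadjusted p of 0.00748, and changed no other call. Same-numbered arrays did not deviate together from the means of their lines (r across all genes -0.034 to 0.028), and the numbers were not taken as a pairing. The counts for other genes of the pathway were not run for lack of symbols. The precision is limited by 3 arrays per line. The lines are 1 clone and its derivative, so the p-values and intervals cover the spread between arrays, not between independently made lines.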
